A study of Mus musculus with 16 samples.

Results

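Red cell precursors sorted from bone marrow can carry RNA of the cells that surround them, and 10 myeloid genes were followed here as a measure of it. They were the calprotectin genes *S100a8* and *S100a9*, the primary granule genes *Mpo* and *Elane*, the secondary granule genes *Ltf*, *Camp* and *Ngp*, the lysozyme gene *Lyz2*, and the macrophage genes *Vcam1* and *C1qa*. The genes were taken by their symbols from the count tables, as 10 of the 46078 genes listed, and 19842 genes had a count in at least 1 library. The study asked how loss of *Ypel4* alters terminal erythroid differentiation, and the comparison of these genes asks how much myeloid RNA each sorted population held and whether it differed with genotype or stage.

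The 16 libraries came from 8 mice on a C57BL/6N background with the coat colour allele A<tm1Brd>, and the line (laboratory codes WtsiIeg) carries the *Ypel4* allele Ypel4<tm1a(EUCOMM)Wtsi>. In Ypel4-/- (homozygous mutant) mice the gene is disrupted by a knockout-first trap allele in every cell, so blood cells other than erythroblasts lacked it too. Ypel4+/+ mice were wild type. From untreated bone marrow of each mouse, polychromatic (Poly-E) and orthochromatic (Ortho-E) erythroblasts were sorted by Ter119 and CD44, with dead cells excluded, giving 4 libraries in each of 4 groups. The ages of the mice are not given in the sources used here. For the sort the labels name antibodies to CD44 and Ter119. The study's methods, which cover its flow cytometry and sorting together, also list antibodies to CD3, B220 and Gr-1, antigens of T cells, B cells and granulocytes, all with the dye PE-Cy5, and do not say whether they were used to gate these cells. Nothing in the labels gives a sequencing batch.

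Neutrophils build their granules in order. Promyelocytes make the primary granule proteins myeloperoxidase and neutrophil elastase, later precursors make lactoferrin, cathelicidin and neutrophilic granule protein for the secondary granules, and *S100a8* and *S100a9* encode the subunits of calprotectin, among the most abundant proteins of mature neutrophils. *Lyz2* is expressed by granulocytes, monocytes and macrophages alike. In bone marrow, erythroblasts mature on a central macrophage in the erythroblastic island, which holds them partly through VCAM1 and clears the nuclei they expel, while *C1qa* encodes a chain of complement C1q that tissue macrophages make. Since a bulk library averages over all cells sorted, fewer cells of a type and less RNA per cell cannot be told apart.

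Library totals ranged from 2670173 to 12451234 counts. As a check of the labels, no Ypel4-/- library reached the *Ypel4* level of any wild-type library of its stage, and the mean log2 difference of TMM-scaled CPM was -5.19 for Poly-E and -4.60 for Ortho-E (exact two-sided permutation p = 0.0286 for each, the smallest 4 against 4 libraries allow). The erythroid identity of the sort was plain, since 11 erythroid genes (among them globins, *Slc4a1*, *Alas2*, *Tfrc*, *Epor*, *Klf1* and *Gata1*) took 93607 to 195407 CPM (counts-per-million of the library total, the unit of level used here unless TMM scaling is named). 1 library is named beside the results that rest on it, Ypel4+/+ Ortho-E replicate 4, which held the most counts of the 10 genes. No 2 libraries held identical values.

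Myeloid transcripts were present in every library at a very low level. Over all 16 libraries the 10 genes gathered 689 of 87208029 counts, and their summed level per library ran from 4.74 to 14.2 CPM, with a median of 7.16. Set against the erythroid genes, the mean summed level was 16980 times lower. The lowest sum belonged to Ypel4-/- Poly-E replicate 4 (59 counts, exact 95% binomial interval 3.61 to 6.11 CPM) and the highest to Ypel4+/+ Ortho-E replicate 4 (98 counts, exact 95% binomial interval 11.5 to 17.2 CPM). Between 4 and 9 of the 10 genes had a count in a library. On library totals the groups overlapped: the mean sum for Poly-E was 6.52 ± 0.437 CPM with the wild-type gene and 7.62 ± 2.27 without it, and for Ortho-E 8.09 ± 4.32 and 9.99 ± 3.56 (SD, n = 4 each). With TMM scaling, which sets libraries to a common level for the bulk of genes, the means were 4.32 and 4.86 CPM for Poly-E and 12.8 and 15.1 for Ortho-E. On that scale the libraries ran from 3.03 to 6.68 in Poly-E and from 7.42 to 22.9 in Ortho-E, so the stages did not overlap. The same held, in the direction of higher Ortho-E values, for 16.1% of all 13318 genes tested. That share is of single genes, whereas the value here is a sum over 10.

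**Figure D1:**
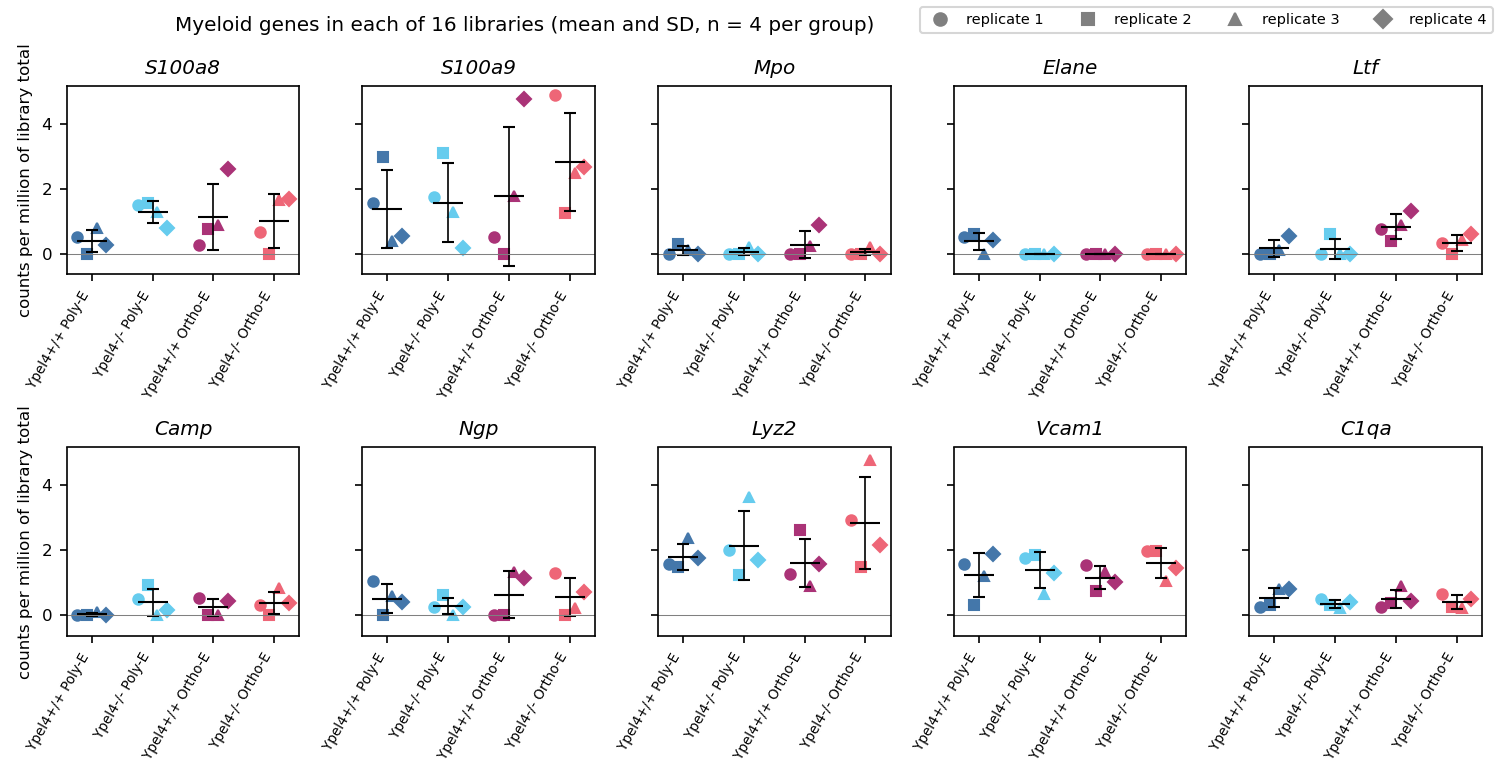
CPM of the library total (y axis, shared) for each of the 10 genes in the 4 groups (x axis), with 1 symbol per library, and the group mean and SD as bars (n = 4). *Lyz2*, *S100a9*, *Vcam1* and *S100a8* carry most of the signal, *Mpo* and *Elane* lie at or near 0, and Ypel4+/+ Ortho-E replicate 4 (diamond) has the highest *S100a8* value, 2.60.

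By share of the 689 counts, *Lyz2* led with 26.3%, followed by *S100a9* with 21.2%, *Vcam1* with 17.0% and *S100a8* with 12.8%. This order was not that of every group, since *S100a9* led in Ypel4+/+ Ortho-E. Long transcripts collect more counts, so levels of different genes were compared per kilobase of exon. On that scale *S100a9* led at 3.61 ± 2.90 CPM per kb, then *Lyz2* at 1.65 ± 0.791, *S100a8* at 1.37 ± 1.03, *C1qa* at 0.429 ± 0.217, *Ngp* at 0.403 ± 0.401, *Camp* at 0.342 ± 0.409, *Vcam1* at 0.152 ± 0.0566, *Ltf* at 0.108 ± 0.114, *Elane* at 0.104 ± 0.226 and *Mpo* at 0.0348 ± 0.0658 (SD over 16 libraries). In this order no neighbours differed by more than the larger of their SDs. *S100a9* lay above 75.2% of the 19842 detected genes and *Mpo* above 24.2% of them.

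The calprotectin genes were the clearest neutrophil signal. *S100a8* (chromosome 3, 90668978 to 90670035, GRCm38) had 2, 0, 8 and 2 counts in Ypel4+/+ Poly-E replicates 1 to 4 and 6, 5, 6 and 10 in Ypel4-/- Poly-E. In Ortho-E it had 1, 2, 4 and 18 counts in Ypel4+/+ and 2, 0, 8 and 14 in Ypel4-/-. The 2 highest counts thus fell in the replicate 4 libraries of Ortho-E, which are also the deepest of their groups.

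*S100a9* (chromosome 3, 90692632 to 90695721) had 6, 10, 4 and 4 counts in the wild-type and 7, 10, 6 and 2 in the Ypel4-null libraries of Poly-E. Its Ortho-E counts were 2, 0, 8 and 33 in wild-type and 15, 5, 12 and 22 in Ypel4-null libraries. In CPM this ran from 0 in Ypel4+/+ Ortho-E replicate 2 to 4.90 in Ypel4-/- Ortho-E replicate 1, and all 4 groups overlapped. Other genes of mature neutrophils were scarce. *Retnlg* had 12 counts over all libraries, *Mmp9* had 18 and *Il1b*, which other activated myeloid cells also make, had 26. *Ly6g*, the surface antigen that defines mouse neutrophils, and *Fpr1*, a receptor for bacterial peptides, had 0 counts in all 16 libraries.

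Primary granule genes were close to absent. *Mpo* (chromosome 11, 87793581 to 87804413) had 11 counts in all, 6 of them in Ypel4+/+ Ortho-E replicate 4, and no other library held more than 1. *Elane* (chromosome 10, 79886312 to 79888216) had 7 counts, in Ypel4+/+ Poly-E replicates 1, 2 and 4 with 2, 2 and 3. The other 3 groups had 0 *Elane* counts, which allows up to 0.123 CPM for Ypel4-null Poly-E and, for Ortho-E, 0.167 with the wild-type gene and 0.148 without it (3 counts over the group total, for counting error only). Its level was 0.381 ± 0.266 CPM in Ypel4+/+ Poly-E, with an exact two-sided permutation p of 0.143 against Ypel4-/- Poly-E (log2 difference -0.55, TMM-scaled CPM with a pseudocount of 0.5). With a count in only 3 libraries, 0.143 is the smallest p this test could give, so it cannot decide on a genotype difference of *Elane*. Further genes of the same granules were as scarce: *Prtn3* had 4 counts, *Cst7* had 2, *Ctsg* and *Ms4a3* had 1 each and *Prss57* had 0. *Srgn*, which encodes the proteoglycan core of many kinds of granule and is made by many blood cells, stood apart with 985 counts and at least 26 in every library.

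Secondary granule genes were detected in more libraries than the primary ones but rarely above a few counts. *Ltf*, encoding lactoferrin (chromosome 9, 111019271 to 111042767), had 0, 0, 1 and 4 counts in the wild-type and 0, 2, 0 and 0 in the Ypel4-null libraries of Poly-E. Its Ortho-E counts were 3, 1, 4 and 9 in wild-type and 1, 0, 2 and 5 in Ypel4-null libraries. Ypel4+/+ Ortho-E was the only group with *Ltf* in all 4 libraries. *Camp*, encoding cathelicidin (chromosome 9, 109847379 to 109849617), had 21 counts in 9 libraries and never more than 4 in a library. *Ngp* (chromosome 9, 110419747 to 110423012) had 44 counts in 11 libraries and at most 8. Among other genes of these granules, *Lcn2* had 13 counts, *Chil3* had 12 and *Cd177* had 11.

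*Lyz2*, *Vcam1* and *C1qa* were the 3 genes with a count in all 16 libraries. *Lyz2* (chromosome 10, 117277334 to 117282274) had 6, 5, 24 and 13 counts in the wild-type and 8, 4, 17 and 21 in the Ypel4-null libraries of Poly-E. Its Ortho-E counts were 5, 7, 4 and 11 in wild-type and 9, 6, 23 and 18 in Ypel4-null libraries. Its highest CPM values were 3.64 and 4.77, in the Poly-E and Ortho-E libraries of the same mouse, Ypel4-/- replicate 3. Of its possible 75-base windows, 5.96% occur in another gene, so a small part of its reads could not be assigned.

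*Vcam1* (chromosome 3, 116109949 to 116129688) had 6, 1, 12 and 14 counts in the wild-type and 7, 6, 3 and 16 in the Ypel4-null libraries of Poly-E. Its Ortho-E counts were 6, 2, 6 and 7 in wild-type and 6, 8, 5 and 12 in Ypel4-null libraries. *C1qa* (chromosome 4, 136895917 to 136898803) had 1 to 8 counts in a library and 42 in all. In CPM, the sum of both stayed within 0.597 to 2.71, and the sum of the 7 neutrophil genes ran from 1.12 to 11.1. The value of 11.1 was that of 1 library, Ypel4+/+ Ortho-E replicate 4. Within Ypel4+/+ Poly-E the 2 sums had like SDs, at 1.78 ± 0.877 CPM for *Vcam1* and *C1qa* and 2.94 ± 0.951 for the neutrophil genes (n = 4). The partner chains *C1qb* and *C1qc* had 47 and 63 counts and were each seen in 13 libraries. Over the whole list of 14 island macrophage genes the sum ran from 5.08 to 12.1 CPM, with *Cd68* (145 counts), *Axl* (120), *Mrc1* (68) and *Cd5l* (59) next to *Vcam1*. All 14 were detected, the scarcest being *Mertk*, a receptor for dying cells, with 11 counts.

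Against loss of *Ypel4*, the first question was whether the myeloid signal differed between genotypes. In Poly-E, 6 of the 10 genes reached the total of 10 counts required for testing and 0 were called by edgeR at an adjusted p of 0.05, where 0.00807% of all 12395 genes tested were called, and 1 of the 6 had an unadjusted p under 0.05. That gene was *S100a8*, whose level was 0.396 ± 0.340 CPM in Ypel4+/+ and 1.28 ± 0.340 in Ypel4-/- (SD, n = 4). Its log2 fold change was 1.28 with an SE of 0.60, and its edgeR adjusted p was 1.00. On library totals the lowest Ypel4-/- library (0.803 CPM) lay just above the highest Ypel4+/+ library (0.794), with an exact permutation p of 0.0286. On this scale 2.4% of all genes tested had groups that did not overlap. With TMM scaling the groups overlapped and the exact permutation p was 0.0571. *S100a9*, the other calprotectin subunit, had a log2 fold change of 0.14 (SE 0.83, edgeR adjusted p = 1.00) in the same libraries.

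In Ortho-E, 8 of the genes were tested and 0 were called, where 0.0285% of 10521 genes were called, and 0 of the 8 had an unadjusted p under 0.05. The nearest was *Lyz2*, with 1.59 ± 0.742 CPM in Ypel4+/+ and 2.84 ± 1.41 in Ypel4-/-. Its log2 fold change was 0.86 with a 95% interval of -0.0028 to 1.72 (edgeR, unadjusted p = 0.0507, adjusted p = 0.995). *S100a8* gave -0.22 and *S100a9* gave 0.29, and both values rested on 1 library: without Ypel4+/+ Ortho-E replicate 4 they became 0.74 and 1.53. *Ltf* had a log2 fold change of -1.23 (SE 0.69, edgeR adjusted p = 0.995). DESeq2 also called 0 of the genes in either stage. In Poly-E the 95% intervals of the log2 fold change ran from -0.67 to 0.92 for *Lyz2* and from -2.83 to 0.72 for *Ngp*, so these libraries do not show that the genotypes were alike.

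**Figure D2:**
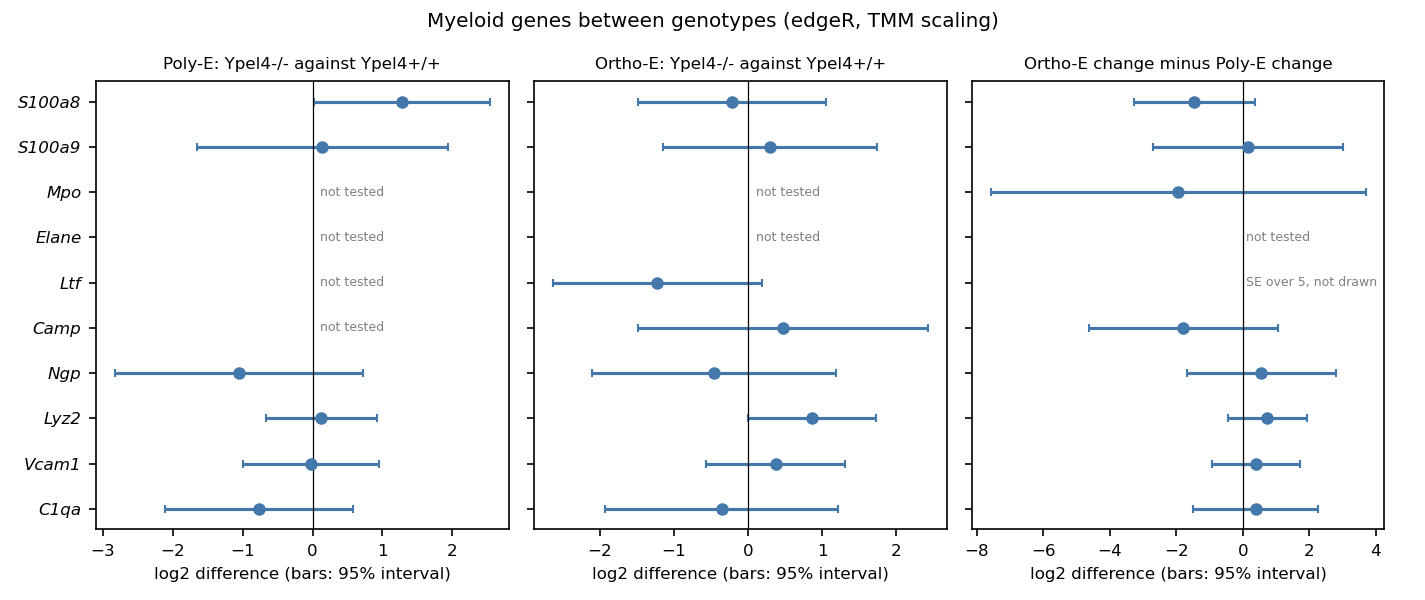
Log2 differences of the tested genes from edgeR with 95% intervals (x axis) by gene (y axis), for Ypel4-/- against Ypel4+/+ in Poly-E, in Ortho-E, and for the difference between these. Only the interval of *S100a8* in Poly-E, 0.02 to 2.54, lies wholly on one side of 0, and the interaction of *Ltf*, with an SE of 11.3, is not drawn.

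Whether the genotype difference itself changed between Poly-E and Ortho-E was tested as an interaction over all 16 libraries. Of 9 genes tested, 0 were called by edgeR, where 0% of 13318 genes were called (363 genes had an unadjusted p under 0.05, 0 of them among the 9). *S100a8* had an interaction of -1.46 (SE 0.90) and *Lyz2* of 0.74 (SE 0.59), on the log2 scale, with edgeR adjusted p of 1.00 for both.

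Between stages, the picture turned on how libraries were brought to a common scale. TMM factors were 0.606 to 0.726 for Ortho-E and 1.45 to 1.64 for Poly-E. The 11 erythroid genes took a mean of 101017 CPM in Poly-E and 179579 in Ortho-E of Ypel4+/+, and 99349 and 167238 in Ypel4-/-. What set the factors apart was not tested. Of 11 erythroid genes tested, 8 were called higher in Ortho-E with TMM in each genotype, led by *Hba-a2*, *Hbb-bs*, *Alas2* and *Hba-a1* with log2 fold changes of 2.64, 2.45, 2.34 and 2.22 in Ypel4+/+ and of 2.87, 2.41, 2.52 and 2.38 in Ypel4-/-. The near-identical globin copies share reads, so their single values are uncertain, and per kilobase *Hbb-bs* and *Hbb-bt* stood highest. In Ypel4+/+ the median log2 fold change of all genes, Ortho-E against Poly-E, was -0.19 with TMM and -1.45 on library totals, a shift of 1.26. In Ypel4-/- it was -0.09 and -1.47, a shift of 1.39. A change of a myeloid gene is therefore given on both scales, the first relative to the bulk of genes and the second as a share of all counts.

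As a share of all counts, 1 myeloid gene passed the edgeR test between stages, in 1 genotype. This fit had no term for the mouse, although both stages came from the same animals, and no fit with the mouse as a block was made on this scale. On library totals edgeR called 1 of 7 tested genes in Ypel4+/+, where 10.4% of 11747 genes were called higher and 60.3% lower, and 0 of 8 in Ypel4-/-, where 11.2% of 11973 were called higher and 60.9% lower (in Ypel4-/-, 6 of the 8 passed with TMM scaling). The called gene was *Ltf* in Ypel4+/+, which rose by a log2 fold change of 2.06 (SE 0.79, edgeR adjusted p = 0.0232), from 0.160 ± 0.259 to 0.833 ± 0.381 CPM. It had 5 counts in Poly-E and 17 in Ortho-E, 9 of the latter in Ypel4+/+ Ortho-E replicate 4. The stages overlapped, with 0.542 CPM in Poly-E replicate 4 and 0.375 in Ortho-E replicate 2, and the exact two-sided permutation p was 0.0571. That permutation test also took no account of the mouse and shuffled both stages as independent libraries. *Vcam1* stood at 1.24 ± 0.689 CPM in Poly-E and 1.16 ± 0.348 in Ortho-E of Ypel4+/+, and at 1.38 ± 0.552 and 1.61 ± 0.454 in Ypel4-/-.

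Relative to the bulk of genes, all tested myeloid genes had higher values in Ortho-E, and some passed the test. With TMM scaling 2 of 7 were called higher in Ypel4+/+, where 26.4% of all genes tested were called higher, and 6 of 8 were called higher in Ypel4-/-, where 29.5% were. A gene reaches the total needed for testing most easily when one stage is high, so these counts describe the tested genes and not all 10. In Ypel4+/+ the calls were *Ltf*, with a log2 fold change of 3.30 (SE 0.77, edgeR adjusted p = 6.12e-04), and *S100a8*, with 2.68 (SE 0.67, edgeR adjusted p = 0.00113). With the mouse as a block, since both stages came from the same animals, 4 were called in Ypel4+/+, *S100a9* and *Ngp* being added. Without Ypel4+/+ Ortho-E replicate 4, *Ltf* alone was called, and *S100a8* and *S100a9* fell to log2 fold changes of 1.67 and 0.93.

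In Ypel4-/- the 6 called genes were *Ltf* (log2 fold change 3.11), *S100a9* (2.56), *Ngp* (2.36), *Lyz2* (1.81), *Vcam1* (1.603) and *S100a8* (1.33). The value of *Ltf* rested on 2 counts in Poly-E and 8 in Ortho-E, which only just reached the total required for testing. On library totals the 6 values became 1.87, 1.16, 1.05, 0.41, 0.22 and -0.06, so the sign of *S100a8* flipped, and none passed. In Ypel4+/+ the signs of *Lyz2*, *Vcam1* and *C1qa* flipped likewise, from 0.97, 1.11 and 0.94 with TMM to -0.31, -0.16 and -0.30 on library totals. The edgeR values of *S100a9*, *Ltf* and *Ngp* lay above 0 in both genotypes on both scales. By the mean log2 of library-total CPM with a pseudocount of 0.5, however, *S100a9* and *Ngp* differed between stages by -0.037 and -0.0032 in Ypel4+/+, and *Ltf* by 1.04. The largest edgeR adjusted p among the 6 calls with TMM was 0.0358, for *S100a8*. When Ypel4-/- Ortho-E replicate 4 was left out, 3 of the 6 remained (*S100a9*, *Lyz2* and *Vcam1*). *Ltf* had 5 of its counts in that library and could not be tested without it. It could be fitted in 4 of the 8 fits with 1 library left out.

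**Figure D3:**
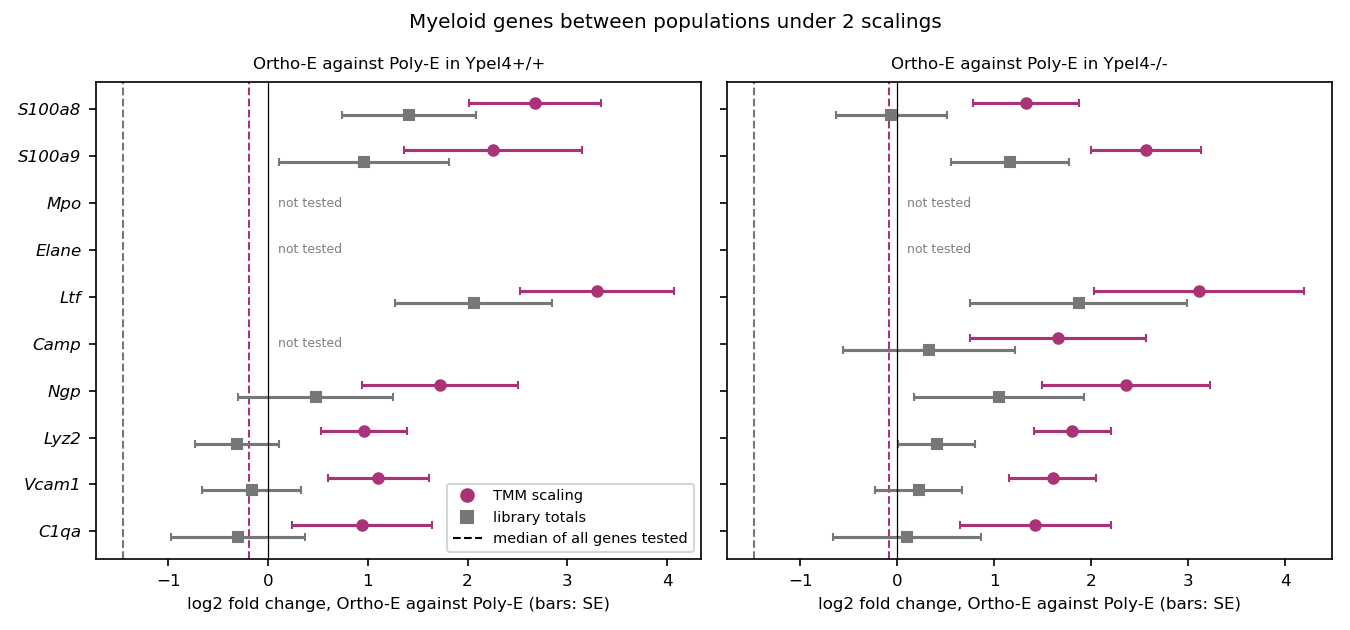
Log2 fold change of Ortho-E against Poly-E (x axis, bars are SE) for each gene (y axis) in Ypel4+/+ (left) and Ypel4-/- (right), with TMM scaling (circles) and on library totals (squares), and the median of all genes tested as a dashed line in the same colour. All circles lie above 0, while the squares of *Lyz2*, *Vcam1* and *C1qa* in Ypel4+/+ and of *S100a8* in Ypel4-/- lie below it.

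The makeup of the myeloid counts was set out by group. *S100a8* and *S100a9* made up 7.45% and 14.9% of the 161 counts in Ypel4+/+ Poly-E, and 14.9% and 25.6% of the 168 counts in Ypel4+/+ Ortho-E. In Ypel4-/- they made up 17.0% and 15.7% of 159 counts in Poly-E, and 11.9% and 26.9% of 201 counts in Ortho-E. *Lyz2* made up 29.8% (wild type) and 31.4% (mutant) of the Poly-E counts, and 16.1% and 27.9% of the Ortho-E counts. *Vcam1* made up 20.5% (wild type) and 20.1% (mutant) of the Poly-E counts, and 12.5% and 15.4% of the Ortho-E counts. These shares pool the 4 libraries of a group, so the deepest libraries weigh most and no test was made on them. In Ypel4+/+ Ortho-E, 77 of the 111 neutrophil gene counts came from replicate 4.

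The neutrophil signal of both stages was set side by side for each mouse. In CPM, the sum of the 7 neutrophil genes in Poly-E and then Ortho-E was 3.64 and 2.05, 3.88 and 1.12, 2.08 and 5.11, and 2.17 and 11.1 in Ypel4+/+ mice 1 to 4. In Ypel4-/- mice 1 to 4 it was 4.00 and 7.51, 6.80 and 1.24, 2.79 and 5.81, and 1.37 and 6.03. The mice fell into 2 sets by replicate number, a split noticed after the values were seen, so no pooled correlation is given. In Poly-E the mice numbered 1 and 2 lay between 3.64 and 6.80 and those numbered 3 and 4 between 1.37 and 2.79, without overlap. In Ortho-E the ranges were 1.12 to 7.51 and 5.11 to 11.1. As a share of all counts, the higher stage was Ortho-E in all 4 mice numbered 3 and 4, and in 1 of the 4 numbered 1 and 2. In TMM-scaled CPM the sums of mice 1 and 2 lay between 2.44 and 4.45 in Poly-E and between 1.71 and 10.3 in Ortho-E. Those of mice 3 and 4 lay between 0.874 and 1.79 and between 7.66 and 17.96. Depth split the same way. Poly-E libraries numbered 1 and 2 held 3235398 to 3995941 counts, and those numbered 3 and 4 held 4666543 to 12451234. For Ortho-E the totals were 2670173 to 4029715 and 4505226 to 8287509. Over 4835 genes, Poly-E deviations correlated across genotypes at 0.223 to 0.642 within a set and -0.581 to -0.124 between sets. Ortho-E values overlapped (-0.135 to 0.339 and -0.40 to 0.0874). What part depth had in the neutrophil sums was not tested.

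**Figure D4:**
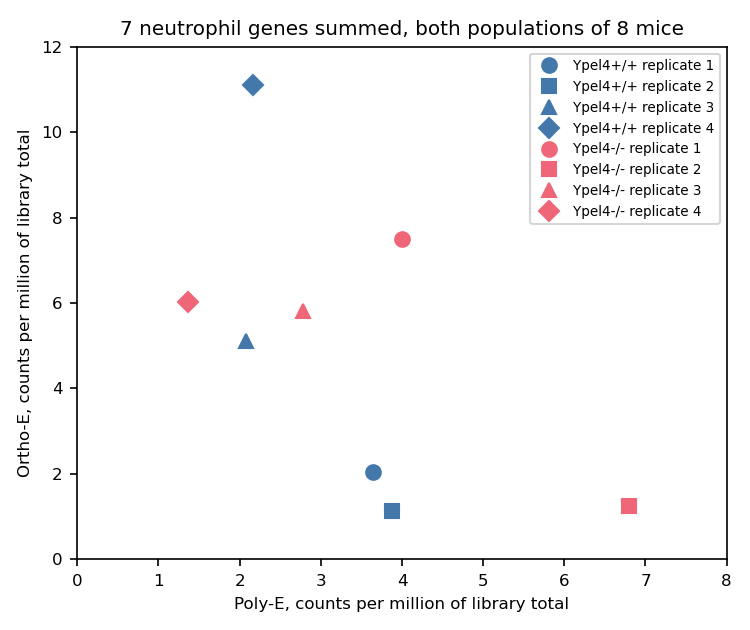
Summed CPM of the library total of the 7 neutrophil genes in Poly-E (x axis) and Ortho-E (y axis), with 1 symbol for each of 8 mice. Mice numbered 3 and 4 (triangles and diamonds) lie at 1.37 to 2.79 in Poly-E and 5.11 to 11.1 in Ortho-E, and Ypel4-/- mouse 2, highest in Poly-E at 6.80, is among the lowest in Ortho-E at 1.24.

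For *Lyz2*, which had counts in every library, the relation between stages over the 8 mice was Pearson's r = 0.45 (exact permutation p = 0.266, adjusted over 5 relations p = 0.443) and Spearman's rho = 0.29 (exact permutation p = 0.501). Leaving out the 2 mice farthest from the median gave r = 0.39. It rested on Ypel4-/- mouse 3, without which r was -0.42. These relations were taken on log2 TMM-scaled CPM with a pseudocount of 0.5. They pool the same 2 sets of mice as above. The 5 relations of the adjustment include a planned one that is not given, that of the neutrophil sum between stages. For the sum of *Vcam1* and *C1qa* the relation between stages was r = 0.76 (exact permutation p = 0.0332, adjusted p = 0.0932) and rho = 0.60 (exact permutation p = 0.132), and it rested on the 2 mice farthest from the median, without which r was -0.54. The neutrophil sum and the sum of *Vcam1* and *C1qa* gave r = -0.035 within Poly-E and 0.13 within Ortho-E (exact permutation p = 0.932 and 0.739, adjusted p = 0.932 and 0.924), with rho = 0 and 0.21 (exact permutation p = 1 and 0.619) and r = -0.40 and -0.28 without the 2 farthest mice.

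Set beside genes of other cell types, B cell genes lay above the myeloid genes. The 11 B cell genes summed to 29.6 to 103 CPM in a library, and their mean was 7.28 times that of the 10 myeloid genes. *Ighm*, the immunoglobulin heavy chain of B cells, had 32 to 356 counts in each library, *Igkc*, the kappa light chain, had 367 counts in all, and *Cd79a*, of the B cell receptor, had 551. In Ortho-E the B cell sum was 35.5 ± 6.19 CPM in Ypel4+/+ and 58.8 ± 14.5 in Ypel4-/- (29.6 to 43.7 against 45.8 to 77.0 without overlap, SD, n = 4). On library totals 2.59% of all genes tested, each taken singly, had genotypes that did not overlap in Ortho-E. The B cell value is a sum over 11 genes, and sums of other genes were not examined for this share. In Poly-E the B cell sum was 59.2 ± 11.5 and 81.1 ± 16.4. Between genotypes edgeR called 0 B cell genes, with 11 tested for Poly-E and 9 for Ortho-E, of which 1 and 5 had an unadjusted p under 0.05, as did 271 of 12395 and 387 of 10521 genes in all. Whether the B220 antibody listed in the study's methods was used to remove B cells from this sort is not stated. T and NK cell genes summed to 0 to 1.75 CPM, led per kilobase by *Ccl5* (14 counts) and *Nkg7* (6), with *Cd3e* at 0 in all libraries. Their part in the myeloid values was not tested.

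**Figure D5:**
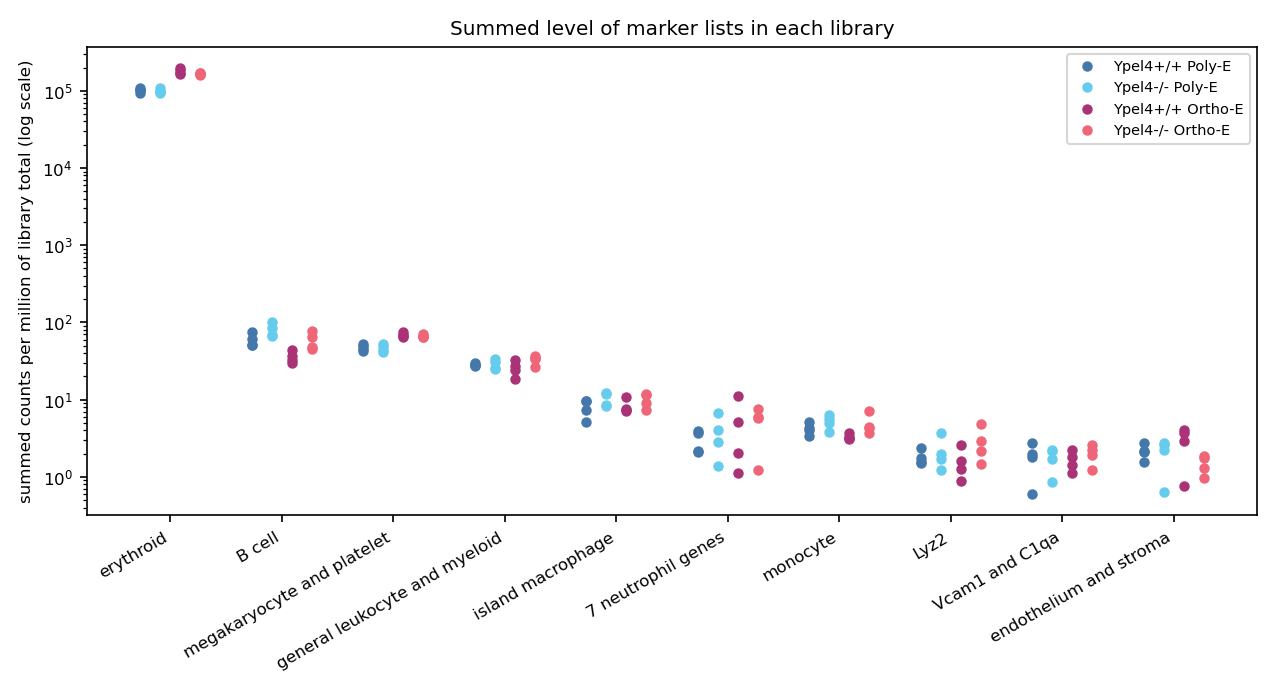
Summed CPM of the library total (y axis, log scale) of marker lists (x axis), with 1 point for each library, coloured by group. Erythroid genes lie at 93607 or above, B cell genes between 29.6 and 103, and the 7 neutrophil genes between 1.12 and 11.1.

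For other lists too, the calls between stages depended on the scale. Over all genes, 26.4% in Ypel4+/+ and 29.5% in Ypel4-/- were called higher with TMM, and 60.3% and 60.9% were called lower on library totals. With TMM scaling 3 of 10 tested island macrophage genes rose in Ypel4+/+ Ortho-E (*C1qb*, *Axl* and *Cd5l*), a share near that of all genes, and 7 of 12 in Ypel4-/-. The largest log2 fold changes of the 7 were those of *Adgre1*, encoding F4/80, at 3.78, the sialoadhesin gene *Siglec1* at 2.56, the growth factor receptor gene *Csf1r* at 2.34 and *Cd5l* at 1.96. They rest on few counts: in Poly-E and Ortho-E of Ypel4-/-, *Adgre1* had 2 and 12, *Siglec1* 4 and 8, *Csf1r* 4 and 7, and *Cd5l* 18 and 22. *Siglec1* stood at 0.582 ± 0.923 CPM in Ypel4-/- Ortho-E, with an SD above its mean. On library totals 0 of 10 were called in Ypel4+/+, while in Ypel4-/- *Adgre1* was called higher and *Cd68* lower. For B cell genes, 2 of 11 in Ypel4+/+ and 7 of 10 in Ypel4-/- were called higher with TMM, whereas on library totals 5 and 2 were called lower and 0 higher. The share higher in Ypel4+/+ and both shares lower lay below those of all genes. Among the B cell genes called with TMM were *Cd79b* (log2 fold change 1.09) and *Ms4a1* (0.92) in Ypel4+/+, and *Ms4a1* (1.27), *Igkc* (1.17) and *Cd79a* (0.98) in Ypel4-/-. *Ighm* had log2 fold changes of 0.40 and 0.82 with TMM and of -0.88 and -0.60 on library totals in Ypel4+/+ and Ypel4-/-. General leukocyte genes had 2 of 9 and 5 of 9 called higher with TMM, and on library totals 1 higher and 3 lower in Ypel4+/+ and 1 of each in Ypel4-/-. In Ypel4+/+ the shares called higher with TMM and lower on library totals were under those of all genes. *Cybb*, encoding a subunit of the phagocyte oxidase, was called with TMM in both genotypes (log2 fold changes of 1.502 and 2.02), and *Laptm5* (1.34), *Ptprc* (1.34) and *Coro1a* (0.91) were called in Ypel4-/-. Per kilobase *Coro1a* (381 counts) and *Cd52* (134) led the list. Of the general leukocyte genes, *Lcp1*, encoding the actin-bundling protein L-plastin, was called higher on both scales in both genotypes (log2 fold changes of 1.92 and 2.24 with TMM, and of 0.65 and 0.83 on library totals).

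The remaining lists had low sums or were carried by a few genes, and which cells these transcripts came from was not tested. Monocyte genes other than *Lyz2* were led by *Irf8* with 144 counts, while *Ly6c2* had 4 and *Cx3cr1* had 2. The megakaryocyte list was carried by *Itga2b* (3831 counts) and *Gp9* (985), and the platelet genes *Pf4* and *Ppbp* had 7 and 31 counts. Of the latter, 28 came from Ypel4-/- Poly-E replicate 1. *Itga2b* was called higher in Ortho-E with TMM in both genotypes (log2 fold changes of 2.25 and 2.52), and so was *Srgn* of the primary granule list (1.27 and 2.04), while *Irf8* was called in Ypel4-/- (1.24). *Gp9* fell as a share of all counts, from 15.8 CPM in Poly-E to 7.03 in Ortho-E of Ypel4+/+ and from 15.6 to 5.77 in Ypel4-/-. On library totals *Srgn* had log2 fold changes of -0.019 in Ypel4+/+, not called, and 0.64 in Ypel4-/-, called higher. Of the megakaryocyte list, 1 gene was called higher and 1 lower on library totals in Ypel4+/+, and 1 higher and 2 lower in Ypel4-/-. Mast cell, basophil and eosinophil genes summed to 0 to 4.00 CPM, led per kilobase by *Prg2* (43 counts) and *Mcpt8* (21). Endothelial and stromal genes summed to 0.643 to 4.00 CPM, led by *Lepr* (80 counts) and *Pecam1* (70). Of these, the chemokine gene *Cxcl12* (log2 fold change 3.83) and the leptin receptor gene *Lepr* (1.69) were called higher in Ypel4+/+ Ortho-E with TMM. These were 2 of 3 tested, where 26.4% of all genes tested were called higher. *Cxcl12* had 2 counts in Poly-E and 12 in Ortho-E of Ypel4+/+, so it reached the total for testing through the stage where it was high. On library totals 1 of the 3 was called higher in Ypel4+/+. In Ypel4-/- 0 of 2 tested were called on either scale. No gene of any of these lists was called between genotypes in Poly-E or Ortho-E.

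Of 5936 genes with a mean of at least 5 TMM-scaled CPM and outside the lists, *Pold3* followed the neutrophil sum most closely once group means were removed, with Pearson's r = 0.92 over 16 libraries. *Rbl1* (0.87), *Uqcrc2* (0.85), *Zc3h7a* (0.85) and *Nudt19* (0.84) came next. These are the highest of many correlations over libraries that share depth and scaling, and are given as a description.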

How the data were processed

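RNA of sorted Poly-E and Ortho-E erythroblasts (16 libraries, 8 mice) was made into TruSeq libraries that do not mark strand. Raw counts per gene were deposited by the authors: reads were aligned to GRCm38 and counted over exons by featureCounts 1.6.4 without strand and without reads matching several genes, per the file headers. Counts of near-identical or overlapping genes are therefore uncertain: exons of *Mpo* and *Vcam1* overlap another gene model, and 6.94% of the 75-base windows of *Mpo* and 5.96% of *Lyz2* occur in another gene.

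Replicate numbers 1 to 4 are from the sample titles. Groups were compared with edgeR 4.0.16 (quasi-likelihood, robust, TMM, genes of 10 or more counts in total, Benjamini-Hochberg adjusted p of 0.05) in R 4.3.3, on the 8 libraries of a comparison (16 for the interaction), and single genes with exact two-sided permutation tests on log2(CPM + 0.5). The test was tested on simulated data. DESeq2 1.42.0, other scalings, filters and left-out libraries were alternatives. P-values between genotypes within a stage, and of relations over the mice, measure the spread between these mice. Those between stages and of the interaction took libraries of the same mouse as independent, except where a block is named.

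Poly-E and Ortho-E with the same number come from the same mouse, as the shared animal number in the deposited names shows. Deviations of same-numbered libraries correlated at 0.487 to 0.651 in Ypel4+/+ and 0.0859 to 0.565 in Ypel4-/-. Different numbers reached 0.434 and 0.288. Across genotypes the same number correlated at 0.233 to 0.642 in Poly-E and -0.135 to 0.339 in Ortho-E, and different numbers reached 0.601 and 0.321. In Ypel4-/- and across genotypes these values therefore do not set same-numbered libraries apart. The members and the 12 marker lists were chosen with earlier results of these data known. Some genes of these lists are not reported here by name. Named genes were all 10 members, of each list up to 4 genes called in a comparison, by size of change, and the 2 of highest level per kb, and the 5 genes most like the neutrophil sum. Further list genes were named after their values were seen, where a count is given. Intervals and floors (3 counts) cover counting error only, since reads carry no molecular identifiers.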

Additional observations from a re-analysis of the deposited data

Results flagged for a closer look

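Of 97 sets of 4 libraries examined for a library that stands apart from its group, 7 held one. The cut-off flags about 1 set in 20 where values are normally distributed. Counts near 0 are not, and the sets share genes, so that rate cannot be set against the 7. For 4 of them the outlying library was the only one above 0 and held 1 or 2 counts: *Mpo* in Ypel4-/- Poly-E replicate 3 (0.214 CPM) and in Ypel4-/- Ortho-E replicate 3 (0.207), *Ltf* in Ypel4-/- Poly-E replicate 2 (0.618) and *Camp* in Ypel4+/+ Poly-E replicate 3 (0.0992). The sum of the secondary granule list was lowest in Ypel4-/- Ortho-E replicate 2 at 0.248 CPM, where the other 3 libraries lay between 2.29 and 2.53. The island macrophage list was highest in Ypel4+/+ Ortho-E replicate 1 at 10.8 CPM, where the others lay between 7.22 and 7.49. The mast cell, basophil and eosinophil list was highest in Ypel4-/- Poly-E replicate 1 at 4.00 CPM, where the others lay between 0.618 and 1.04.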

How the results depend on the processing

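The 0 calls between genotypes in Poly-E, in Ortho-E and for the interaction were also 0 under every alternative that could be fitted, the replicate block included. The counts of called myeloid genes between stages were not stable. In Ypel4+/+, 2 were called, and 6 with DESeq2 size factors in edgeR, 1 on library totals, 6 with no filter, 5 with DESeq2, 4 with the replicate block, 4 with edgeR and 6 with DESeq2 on all 16 libraries, and 1 to 4 with a replicate left out (1 without Ypel4+/+ Ortho-E replicate 4). In Ypel4-/-, 6 were called, and 0 on library totals, 5 with DESeq2, 1 with filterByExpr, which kept 1 of the genes, and 3 to 6 with a replicate left out (3 without Ypel4-/- Ortho-E replicate 4). The filterByExpr filter left none of the genes to test in Poly-E or between stages in Ypel4+/+. Between stages on library totals, log2 fold changes reversed for *Lyz2* (-0.31), *Vcam1* (-0.16) and *C1qa* (-0.30) in Ypel4+/+ and *S100a8* (-0.061) in Ypel4-/-, as the scaling moved all genes together. Between genotypes in Poly-E, *Vcam1*, at -0.02, went to 0.024 on library totals and 0.000746 with DESeq2. With a replicate left out, log2 fold changes crossed 0 in Poly-E for *S100a9* (-0.45 to 0.79), *Lyz2* (-0.22 to 0.33) and *Vcam1* (-0.24 to 0.25), in Ortho-E for *S100a8* (-0.63 to 0.74) and *C1qa* (-0.53 to 0.064), and in the interaction for *S100a9* (-0.45 to 1.46) and *Ltf* (-1.64 to 1.68). The cause was not tested. The mean summed level of the 10 genes in Poly-E was 4.32 CPM with TMM in Ypel4+/+ and 4.86 in Ypel4-/-, against 6.52 and 7.62 on library totals and 6.92 and 8.09 with globin genes left out of the total. In Ortho-E the same means moved the other way, from 12.8 and 15.1 CPM with TMM to 8.09 and 9.99 on library totals and 9.20 and 11.3 without globin genes. The correlation of *Lyz2* between stages, 0.45, ran from -0.42 to 0.84 with a mouse left out, that of *Vcam1* and *C1qa*, 0.76, from 0.54 to 0.98 (0.69 with a pseudocount of 5), that of neutrophil and macrophage sums within Poly-E, -0.035, from -0.31 to 0.16 (0.018 with a pseudocount of 5), and within Ortho-E, 0.13, from -0.40 to 0.36, and the neutrophil sums are given as values for each mouse. With at most 33 counts of a gene in a library, counting error limits every value.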
